A study of Homo sapiens with 6 samples.

Results

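ORM1, INSL5 and CRISP3 encode secreted proteins whose mRNAs rose from low levels in K562 cells that were induced to make C/EBPα. They were chosen by name, out of 17023 genes with a value in all 3 groups, for their large rises over control cells in cells with wild-type C/EBPα or with its short isoform p30, so the levels and changes of these 3 genes are a description and carry no test. K562, an established line of human leukemia cells, is erythroid in character and makes neither C/EBPα isoform of its own. The samples were 2 replicates each of CTR cells, which carry an empty vector, of CEBPA cells, with a Tet-inducible wild-type C/EBPα cassette, and of P30 cells, with a Tet-inducible p30 cassette. The cassettes were carried by a PiggyBac transposon in stable lines, and whether a line is 1 clone is not given in the sources used here. Doxycycline, the inducing drug, was given to all 6 samples at 200 ng/ml for 48 h, so that no group is free of it, and differences between separately made lines cannot be told apart from effects of the isoforms.

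C/EBPα is a basic leucine zipper transcription factor of granulocyte development, and the same factor family drives many secreted liver proteins. Besides the complete protein, p42, cells make a truncated form, p30, when ribosomes begin at an internal AUG, so a wild-type cassette can yield both. The paper's supplement reports a western blot with p42 and p30 in the CEBPA line, and neither in CTR, after 48 h of doxycycline. A comparison of CEBPA with P30 cells is thus not one of p42 alone with p30. The basic leucine zipper, which contacts DNA, is common to both forms, and much of the activating region is missing from p30. ORM1 encodes orosomucoid, an acute phase glycoprotein of the lipocalin family that the liver releases into plasma and that neutrophils store in specific granules. INSL5 encodes a hormone of the relaxin family, known from endocrine L cells of the colon, which acts through the receptor RXFP4. CRISP3 encodes a cysteine-rich secretory protein of the CAP superfamily, found in neutrophil granules, saliva and seminal plasma.

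The values are FPKM, fragment counts scaled by transcript length and by the number of mapped fragments. The deposited tables hold a single value for each gene in a group, made from both replicates together. There is thus no spread between replicates for any level or change below, and the number of fragments behind a low value cannot be read from these tables. Changes were computed between log2(FPKM + 1) values, where the added 1 shrinks the change of genes with little mRNA, and a gene counts here as higher or lower from a difference of 1, that is 2-fold on this scale. The row of CEBPA itself was not analysed here, so the mRNA of the transgene could not be checked. The erythroid markers of K562 were present in all groups: 8 of 12 had values, each over 1 FPKM in every group, and their FPKM summed to 1920 (CTR), 726 (CEBPA) and 1290 (P30). In such bulk samples fewer cells of a type and less RNA per cell cannot be told apart.

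The upstream sequences of the 3 genes are shown because the proteins under study bind DNA. They are the 250 bases before the start site in RefSeq's promoter table (GRCh38.p14), 5′ to 3′ on the strand of the gene, and were placed by exact match on GRCh37, the assembly also called hg19 that the authors used. Capitals mark TTNNGNAA or its reverse complement TTNCNNAA, a relaxed form of the C/EBP binding sequence.
ORM1, chr9:117085128-117085377, plus strand: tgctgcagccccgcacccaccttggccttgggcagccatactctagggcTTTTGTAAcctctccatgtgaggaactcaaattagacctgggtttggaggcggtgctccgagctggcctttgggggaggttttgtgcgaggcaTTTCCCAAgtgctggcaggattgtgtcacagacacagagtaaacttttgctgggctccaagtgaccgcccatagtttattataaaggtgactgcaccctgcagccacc
INSL5, chr1:67266960-67267209, minus strand: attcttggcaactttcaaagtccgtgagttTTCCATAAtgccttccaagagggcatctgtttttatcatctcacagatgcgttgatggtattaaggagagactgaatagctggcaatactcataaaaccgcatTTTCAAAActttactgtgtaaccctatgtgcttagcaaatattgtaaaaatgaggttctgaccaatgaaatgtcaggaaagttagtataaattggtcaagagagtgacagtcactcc
CRISP3, chr6:49712102-49712351, minus strand: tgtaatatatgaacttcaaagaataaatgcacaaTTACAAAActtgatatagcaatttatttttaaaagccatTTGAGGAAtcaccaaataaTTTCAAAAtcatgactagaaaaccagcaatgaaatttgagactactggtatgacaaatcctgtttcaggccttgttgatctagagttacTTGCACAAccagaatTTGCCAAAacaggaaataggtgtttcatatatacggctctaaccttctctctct
The relaxed sequence occurred at 2 places upstream of ORM1, at 2 upstream of INSL5 and at 5 upstream of CRISP3. It was also present in 33.2% of the 35116 promoters of the table, so its presence does not set these genes apart. The narrower form TTGCNNAA (reverse complement TTNNGCAA), which overlaps the relaxed one, was matched only upstream of CRISP3, by TTGCACAA at 69 to 62 bases and TTGCCAAA at 54 to 47 bases before the RefSeq start, and in 9.05% of all promoters. In the Gencode annotation used below CRISP3 begins further upstream, at chr6:49712150, which lies inside TTGCCAAA. The last part of its printed sequence is thus within the gene as annotated there. For ORM1 and INSL5 the sequence ends directly before the gene in both. None of the 3 held the palindrome TTGCGCAA, present in 0.131%. CCAAT or ATTGG was found upstream of INSL5 alone, at 2 places, and in 32.0% of all promoters. TATAAA, or TTTATA on the other strand, lay 29 to 24 bases before the start of ORM1 and 32 to 27 bases before that of INSL5, was not matched upstream of CRISP3, and occurred in 10.7% of all promoters. The GC content of the 250 bases was 54.8% for ORM1, 38.0% for INSL5 and 32.4% for CRISP3, against a median of 58.0%. A match of letters is not a binding site, and no binding was measured in these data.

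The FPKM of ORM1 was 0.178 (CTR), 891 (CEBPA) and 3.41 (P30). It was thus near 0 in control cells, abundant with wild-type C/EBPα and low but higher than in CTR with p30. Its rise in CEBPA vs CTR was 9.56, the fourth-highest rise of 13673 genes compared, and that in P30 vs CTR was 1.91, rank 34 of 12395. CEBPA exceeded P30 by 7.66 on the log2 scale, a ratio of 261.

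The FPKM of INSL5 was 0.103 (CTR), 493 (CEBPA) and 0.269 (P30). Its level with p30 stayed below 1 FPKM, as in CTR. The change in CEBPA vs CTR was 8.81, next in order after ORM1 and just above ARG1, the arginase of liver and neutrophils, at 8.68. In CEBPA vs P30 its difference of 8.60 was the highest of 13569 genes. The P30 vs CTR difference was 0.20, and 0.86 with 0.1 in place of the added 1, which shrinks it. It rests on low values whose fragment counts are not in these tables. The spread of that comparison (scaled median absolute deviation, 0.20) is over genes above 1 FPKM, INSL5 not among them, and gives no measure for it.

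The FPKM of CRISP3 was 1.67 (CTR), 97.6 (CEBPA) and 49.7 (P30). Unlike the other genes it was already over 1 FPKM in control cells, and it was much higher in both CEBPA and P30. Its rise in CEBPA vs CTR was 5.21, rank 43, and that in P30 vs CTR was 4.25, rank 3 behind the small RNAs snoU13 and U6. CEBPA exceeded P30 by 0.96, a ratio of 1.96.

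**Figure D1:**
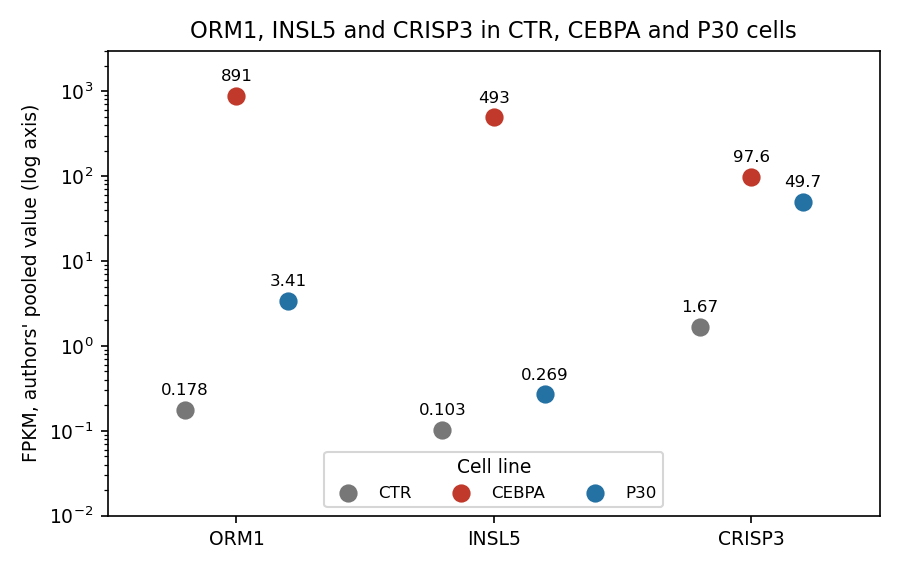
FPKM of ORM1, INSL5 and CRISP3 on a log axis, 1 point per cell line, each the authors' pooled value of 2 replicates with no error available. In P30, ORM1 (3.41 FPKM) lies above CTR (0.178 FPKM) and far below CEBPA, INSL5 (0.269 FPKM) lies near CTR (0.103 FPKM), and CRISP3 (49.7 FPKM) lies near CEBPA (97.6 FPKM).

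By a difference of at least 1, CEBPA was above CTR for all 3 genes, as for 14.0% of all genes compared, while 6.92% were lower. P30 was above CTR for ORM1 and CRISP3, as for 1.02% of all genes, while 0.613% were lower, and INSL5 was at or below 1 FPKM in both groups and so not among the genes compared. CEBPA was above P30 for ORM1 and INSL5, as for 13.1% of all genes, while 5.79% were lower, and the 0.96 of CRISP3 was under 1. The genes were selected on these contrasts, and nothing is read from these counts.

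**Figure D2:**
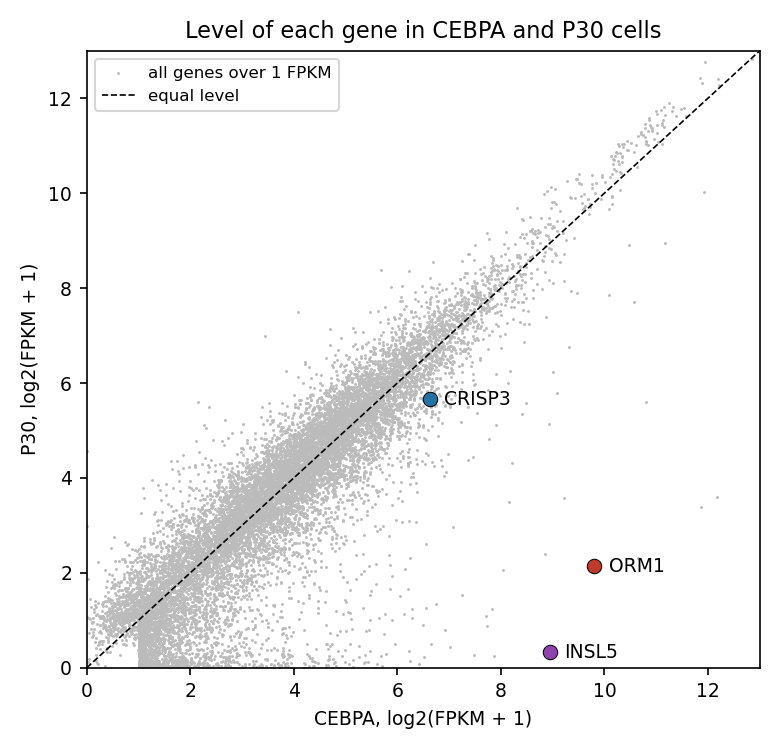
Level of each gene over 1 FPKM in any group, as log2(FPKM + 1), in CEBPA (x axis) and P30 (y axis), 1 grey point per gene, with equal levels on the dashed line. CRISP3 sits close to the line at 6.62 and 5.66, while ORM1 (9.80 and 2.14) and INSL5 (8.95 and 0.34) lie far below it.

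The part of each rise that was also seen with p30 was taken as the rise from CTR to P30 divided by the rise from CTR to CEBPA. On the log2(FPKM + 1) scale it was 81.6% for CRISP3, 19.9% for ORM1 and 2.29% for INSL5. In linear FPKM the shares were 50.0%, 0.363% and 0.0336%, so the order of the 3 genes was the same on both scales while the sizes for ORM1 and CRISP3 depended on the scale. With 0.1 in place of the added 1, the log2 shares were 83.2% (CRISP3), 31.4% (ORM1) and 7.65% (INSL5). Both rises of a gene use the same CTR value, and without replicates no error can be put on a share. Without CTR, the P30 level was 50.9% of the CEBPA level for CRISP3, 0.383% for ORM1 and 0.0545% for INSL5.

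**Figure D3:**
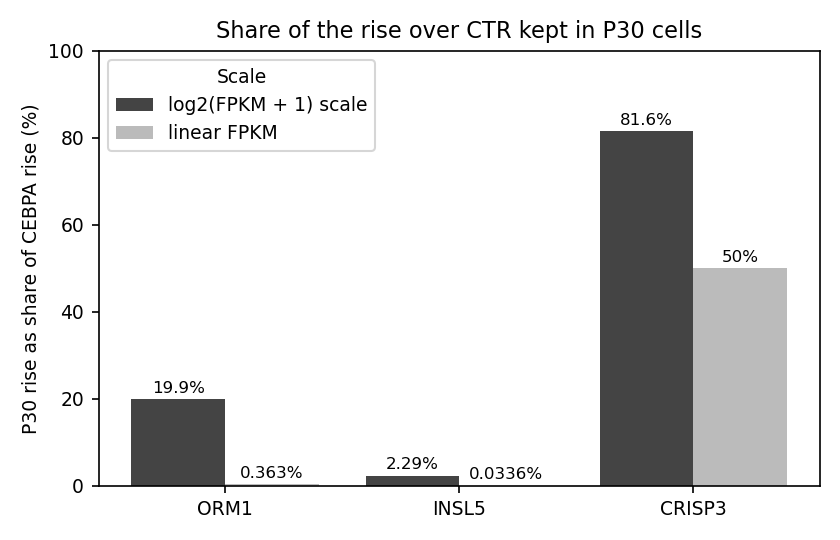
Bars give the rise from CTR to P30 as a percentage of the rise from CTR to CEBPA for each gene, on the log2(FPKM + 1) scale (dark) and in linear FPKM (light). CRISP3 has the tallest bars, at 81.6% and 50.0%, ORM1 drops from 19.9% to 0.363% with the scale, and INSL5 stays at 2.29% or less.

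Rises of at least 3 in CEBPA vs CTR, that is 8-fold, were found in 1.76% of all genes compared, ORM1, INSL5 and CRISP3 included. To place the shares, the 236 such genes with a single row and values in all 3 groups were described in the same way. Their median share on the log2 scale was 1.95%, with quartiles at -0.353% and 8.34%. The P30 level was under 1% of the CEBPA level in 98 of them, ORM1 and INSL5 included, and the median was 1.44%. It reached 50% in 5 of the 236: CRISP3, the integrin gene ITGB2 at 51.0%, the annexin gene ANXA3 at 66.9%, and the small RNA genes MIR3936 and SCARNA22, which were listed at 0 in CTR. The 236 were taken for their rise in CEBPA and CRISP3 for its own rises, so this is a description only. The count also depends on the cut of 3. Among genes under it, COLGALT2 (rise 2.58) had a P30 level of 58.3% of CEBPA, ARHGEF6 (2.34) 55.6% and PNRC1 (2.96) 32.5%.

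The genes with the most similar levels were found by Euclidean distance over log2(FPKM + 1) in the 3 groups, among 13692 other genes. For ORM1 they were S100A12, a calcium-binding protein of neutrophils, at 0.87, ARG1 at 0.99, INSL5 at 1.99, CHI3L1, a chitinase-like secreted protein, at 2.17 and the haptoglobin gene HP at 2.34. S100A12 had 0.221, 1610 and 4.01 FPKM in CTR, CEBPA and P30, and ARG1 had 0.127, 460 and 4.27. For INSL5 the nearest were SLC26A3, an intestinal chloride-bicarbonate exchanger, at 1.09, the myeloid nuclear antigen gene MNDA at 1.35, CHI3L1 at 1.44, HP at 1.45 and the neutrophil collagenase gene MMP8 at 1.48. SLC26A3 had 0.0779, 232 and 0.194 FPKM. CRISP3 had other neighbours, namely ANXA3 at 1.23, ITGB2 at 1.79, COLGALT2, a collagen galactosyltransferase, at 2.11, PNRC1 at 2.22 and the exchange factor gene ARHGEF6 at 2.29. ANXA3 had 4.98, 74.3 and 49.7 FPKM. With 3 values per gene there is little room to tell patterns apart, and likeness here is no measure of shared control.

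ORM1 and its paralog ORM2 lie side by side, and their values have to be read together. In GRCh37 ORM1 (ENSG00000229314) spans chr9:117085378-117088759 and ORM2 (ENSG00000228278) chr9:117092149-117095531, both on the plus strand. The 250 bases upstream of ORM1 shown above occur unchanged a second time on chromosome 9, at chr9:117091899-117092148, directly before the start of ORM2. The coding sequences of the transcripts ORM1-201 and ORM2-201, each 603 nt long, are identical at 572 positions (94.9%), with a longest identical run of 206 nt. Of the 685 windows of 80 nt in the ORM1 transcript, 276 (40.3%) also occur in ORM2, so that a single read of 80 nt from these parts does not name its gene. The authors' reads were longer and paired, so this share does not give the part of their reads that is ambiguous. The 96 nt with the most differences, 18, are coding positions 310 to 405, which begin in exon 3 and end in exon 4 (chr9:117086350-117087146 in ORM1 and chr9:117093124-117093923 in ORM2, intron included). They are shown because reads there separate the genes, with the differing bases in capitals.
ORM1: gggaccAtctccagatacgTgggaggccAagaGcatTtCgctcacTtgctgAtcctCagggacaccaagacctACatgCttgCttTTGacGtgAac
ORM2: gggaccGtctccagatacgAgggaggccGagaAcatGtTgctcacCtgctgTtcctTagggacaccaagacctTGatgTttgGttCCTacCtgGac
ORM2 was at 0 in the CTR column, at 128 FPKM in CEBPA and at 0.346 in P30. Its difference from CTR was 7.02 in CEBPA and 0.43 in P30, and its P30 level was 0.270% of the CEBPA level. How far the estimates divide reads between ORM1 and ORM2 correctly was not tested. With the FPKM of both genes summed, the difference from CTR was 9.76 in CEBPA and 2.01 in P30.

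Acute phase proteins of plasma, the class that ORM1 and ORM2 belong to, were followed through a list of 22 genes other than ORM1, 12 of them with values. A listed gene that is low in CTR passes a limit of 1 FPKM only where it is high in the other group, so counts and medians of the lists are given over every listed gene in the table of the pair, with no limit. The tables were themselves selected by a rule that is not given, and this list had 12 rows for CEBPA vs CTR and 8 for P30 vs CTR. A gene low in CTR may thus have a row only because it is high in the other group. This holds for all the lists, so their counts beside the shares over all genes are a description only. With no limit, 11.3% of all 16938 rows were higher and 5.59% lower in CEBPA vs CTR, around a median of 0.05. For P30 vs CTR these shares were 0.842% and 0.508% of 14956 rows, around a median of 0.02. Of the 12 acute phase genes, 4 were higher in CEBPA vs CTR and 0 lower, and their median change was 0.53. Over the 7 above 1 FPKM, 3 of which were so in CEBPA only, the median was 2.42. The 4 were ORM2, HP, LCN2 and C3. HP, whose product binds free hemoglobin, had FPKM values of 0.193 (CTR), 209 (CEBPA) and 1.12 (P30), the order used in what follows. LCN2, an iron-siderophore-binding lipocalin, had 3.94, 264 and 3.16 FPKM, and C3, the central complement component, 8.25, 48.5 and 11.2. HAMP, the iron hormone hepcidin, had 1.10, 0.809 and 3.02 FPKM, and ITIH4 7.31, 7.31 and 7.28. CRP, the C-reactive protein gene, was at 0 in the CTR column and at 0.467 FPKM in CEBPA. In P30 vs CTR, 0 of 8 were higher or lower, and the median was 0.28. Of 12 hepatocyte markers, 6 had values, and their FPKM summed to 11.3 (CTR), 10.6 (CEBPA) and 3.82 (P30). Their part in the rise of ORM1 was not tested. Among them the albumin gene ALB had 0.119, 6.02 and 0.329 FPKM and the transferrin gene TF 9.15, 3.29 and 2.35. In the lipocalin family (18 genes besides ORM1, 8 with values), 3 of 8 were higher in CEBPA vs CTR, as were 11.3% of all genes, and 0 lower, with a median of 0.08. The median was 1.56 over the 5 above 1 FPKM, 2 of which were so in CEBPA only. The lipocalins that were higher were ORM2, LCN2 and RBP4, the retinol-binding protein gene, which was at 0 in the CTR and P30 columns and at 1.94 FPKM in CEBPA. With p30, 0 of 5 lipocalins were higher or lower than in CTR, and the median was -0.25.

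ORM1 and CRISP3 were also compared with 18 other proteins of neutrophil specific and gelatinase granules, a list that shares HP, LCN2 and ORM2 with the acute phase list and of which 15 had values. In CEBPA vs CTR, 12 of 15 were higher, against 11.3% of all genes, and 0 lower, against 5.59%, with a median change of 5.26 against 0.05 for all genes. Of the 15, 9 were over 1 FPKM in CEBPA and not in CTR, and the median over the 14 above 1 FPKM was 5.50. Besides HP, LCN2 and ORM2 these included CHI3L1 (0.0705, 227 and 1.38 FPKM), MMP8 (0.0582, 177 and 0.211), the antiprotease gene SLPI (0.0320, 90.0 and 0.163) and LYZ, the lysozyme gene (45.5, 1780 and 47.6). TCN1, a vitamin B12 binder, had 0.795, 47.7 and 6.37 FPKM. In P30 vs CTR, 3 of 10 were higher, against 0.842% of all genes, namely CHI3L1, TCN1 and ITGAM, and the median was 0.42. Among the 12 that were higher in CEBPA, the P30 level ranged from 0.119% (MMP8) to 13.3% (TCN1) of the CEBPA level, with a median of 0.901%. ORM1, at 0.383%, lay within this range, and CRISP3, at 50.9%, above it. The range covers only genes higher in CEBPA, which tends to lower it, and ORM1 and CRISP3 were themselves chosen on such values. Nothing is read from this placing. The listed genes that were not higher in CEBPA differed among themselves. The integrin gene ITGAM had 2.59, 2.43 and 14.3 FPKM, CYBA 292, 239 and 359, and MMP9 0.0716, 0.556 and 0.0562. Markers of mature granulocytes were higher in CEBPA as well: 8 of 12 had values, and 8 of 8 were higher in CEBPA vs CTR, against 11.3% of all genes, with a median of 5.70 against 0.05 for all genes and summed FPKM of 4.78 (CTR), 10300 (CEBPA) and 29.1 (P30). Of the CEBPA sum, S100A9 had 4620, S100A8 3730 and S100A12 1610. Of the 8, 7 were over 1 FPKM in CEBPA and not in CTR. In P30 vs CTR, 3 of 7 were higher, against 0.842% of all genes, namely S100A8, S100A9 and S100A12, and the median was 0.62. None of the 8 was listed at 0 in any group, and their P30 level was 0.240% (S100A9) to 11.2% (MME) of that in CEBPA. As all 8 were higher in CEBPA, nothing is read from this range. Their part in the rises was not tested.

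**Figure D4:**
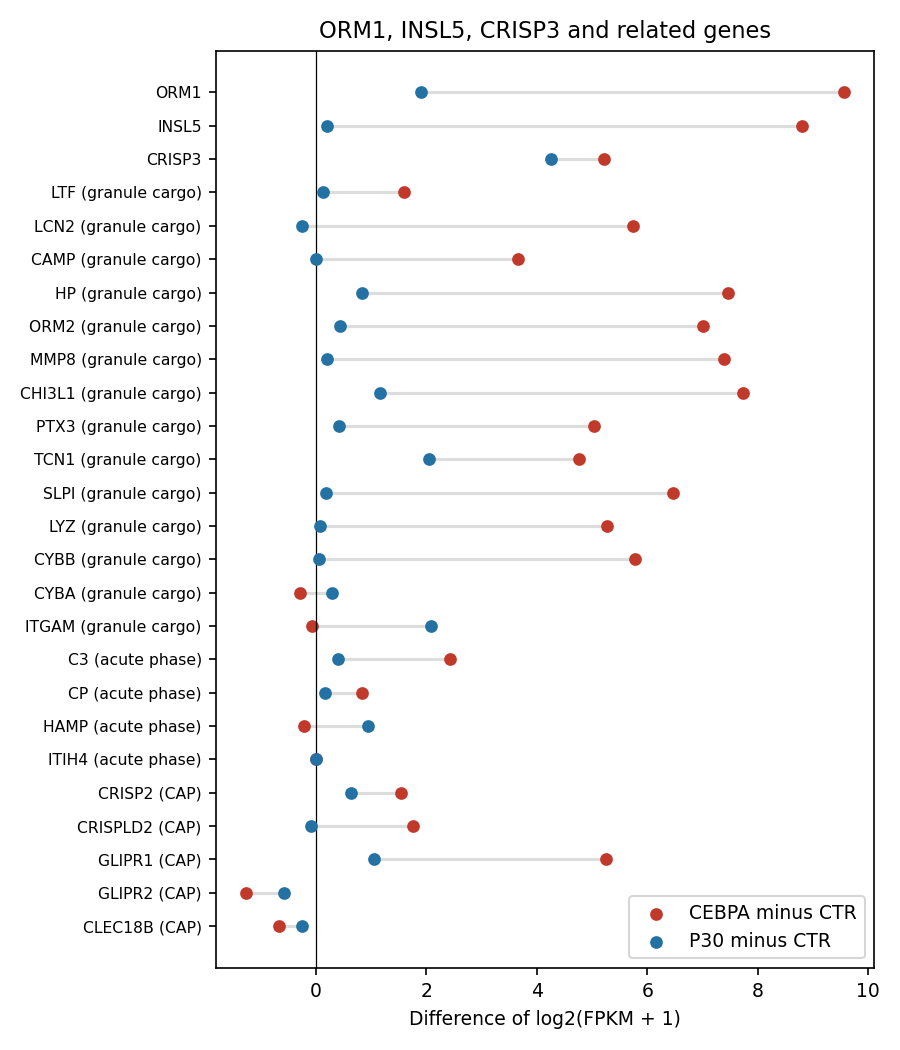
Difference of log2(FPKM + 1) against CTR, in CEBPA (red) and in P30 (blue), for ORM1, INSL5 and CRISP3 and for listed genes over 1 FPKM, joined by a line per gene. The points of CRISP3 (5.21 and 4.25) lie close together far from 0, whereas ORM1 (9.56 and 1.91), INSL5 (8.81 and 0.20) and HP (7.46 and 0.83) have their P30 points far below their CEBPA points.

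CRISP3 (ENSG00000096006) spans chr6:49695089-49712150 on the minus strand of GRCh37, with 4 annotated transcripts and up to 8 exons, and a lncRNA gene overlaps it on the other strand. The library kit was stranded, but whether the strand was used when reads were assigned to genes is not given in the sources used here. Of 14 other genes of the CAP superfamily, 7 had values. In CEBPA vs CTR, 3 of 7 were higher, against 11.3% of all genes, and 1 lower, against 5.59%, with a median of -0.10. Over the 5 above 1 FPKM, 3 of which were so in CEBPA only, the median had the other sign, at 1.54. In P30 vs CTR 1 of 6 was higher, against 0.842%, with a median of 0.32. GLIPR1, a membrane-bound CAP protein, had 0.532, 57.0 and 2.16 FPKM and was the gene higher with p30. CRISP2, the neighbouring paralog known from sperm, had 0.0432, 2.04 and 0.609 FPKM, and CRISPLD2 0.200, 3.06 and 0.123. GLIPR2 was lower in CEBPA than in CTR by a log2 difference of -1.26, at 4.42 FPKM, and had 7.65 FPKM in P30. CRISP3 and CRISP2 shared 0 of the 2126 windows of 80 nt in the CRISP3 transcript, so that exact reads of that length are not shared between them. Of the genes for proteins known to bind CRISP3, neither passed the fold: A1BG, of plasma, had 23.5, 18.1 and 17.1 FPKM, and MSMB, of seminal plasma, 0.368, 0.216 and 0.169.

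INSL5 (ENSG00000172410) spans chr1:67263423-67266959 on the minus strand of GRCh37, with 1 transcript of 2 exons and 736 nt and no overlapping gene. Of 9 other ligands of the insulin and relaxin family, 2 had values. IGF1, a growth factor, had 0.201, 4.04 and 0.543 FPKM and was higher in CEBPA vs CTR, as were 11.3% of all genes. RLN3, a relaxin of the brain, had 1.70, 0.463 and 2.42 FPKM. The receptor gene RXFP4 was not analysed here. Of 7 receptors 3 had values, with IGF1R higher in CEBPA (1.15, 3.49 and 0.993 FPKM), against the same 11.3%, and INSR (1.30, 0.748 and 1.03) and IGF2R (37.4, 58.9 and 37.0) short of the fold. Enzymes that cut and trim prohormones were represented by 6 of 9. In CEBPA vs CTR, 1 of 6 was higher, against 11.3% of all genes, and 0 lower, against 5.59%. With so few genes, nothing is read from these counts. The 1 was CPD, a carboxypeptidase of the trans-Golgi network, with 13.4, 40.1 and 15.9 FPKM. FURIN had 59.6, 31.3 and 55.1 FPKM, PCSK7 14.4, 7.33 and 12.4, and none of the 5 over 1 FPKM was lower by the fold, against 6.92% of all genes over 1 FPKM. The median difference of the 5 from CTR was -0.63 in CEBPA and 0.07 in P30, and over all 6 that in CEBPA was -0.16. Of 11 enteroendocrine markers 4 had values, and their FPKM summed to 23.9 (CTR), 69.6 (CEBPA) and 26.5 (P30). Their part in the rise of INSL5 was not tested. CCK, the cholecystokinin gene, was at 0 in the CTR column, at 47.7 FPKM in CEBPA and at 0.0610 in P30. The granin genes went apart, SCG2 with 0.435, 2.45 and 0.447 FPKM and SCG3 with 11.6, 2.08 and 9.63, and PAX6 had 11.8, 17.4 and 16.4. The defining L cell genes GCG and PYY were not analysed here.

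The genes next to each of the 3 were examined to see whether a rise was shared along the chromosome. Among the 3 protein coding genes on either side, 2 had values for ORM1, 2 for INSL5 and 3 for CRISP3. Besides ORM2, the gene AKNA, whose start lies 71.3 kb from that of ORM1, differed from CTR by 0.55 in CEBPA and 0.10 in P30. Beside INSL5, MIER1 at 123.6 kb differed by 0.13 and 0.21, and SLC35D1 at 252.9 kb by 1.22 and 0.87. Near CRISP3, CRISP2 at -30.8 kb differed by 1.54 and 0.63, and RHAG, a Rh blood group component of red cells, at -107.6 kb by -1.77 and -1.01. Except for ORM2, none of these neighbours came near the rise of the gene beside it in CEBPA vs CTR.

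**Figure D5:**
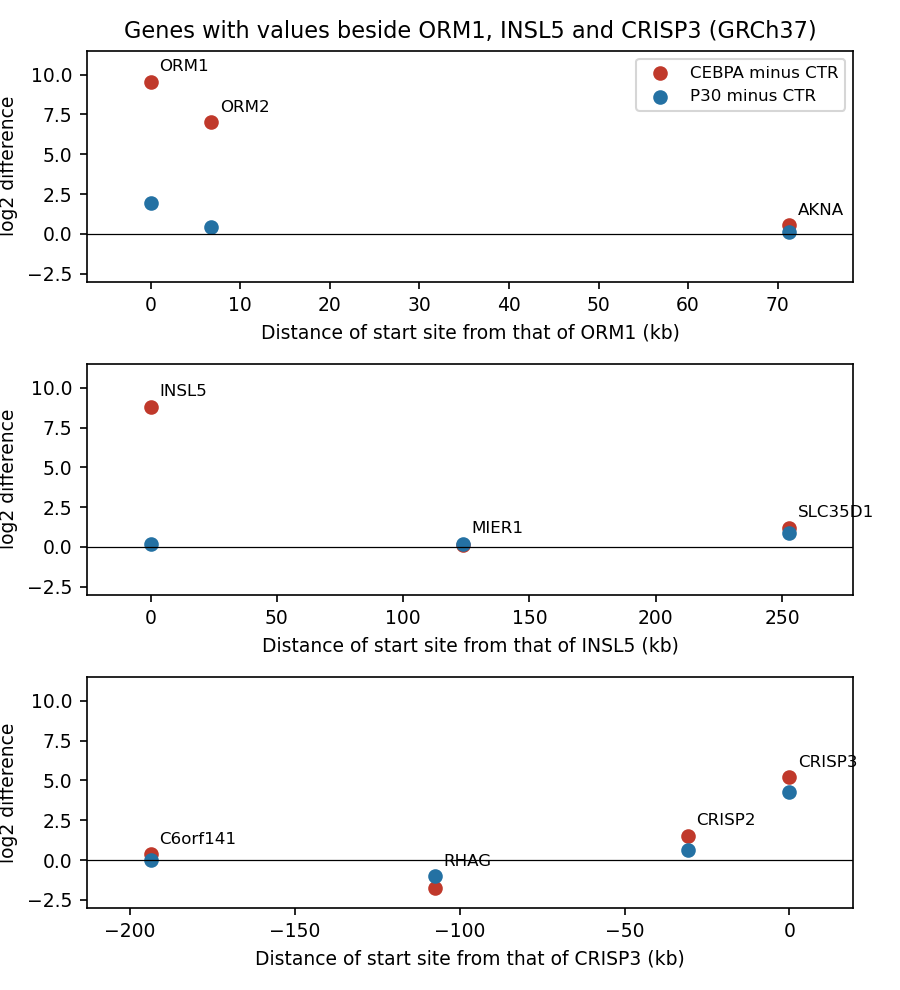
Difference of log2(FPKM + 1) against CTR in CEBPA (red) and P30 (blue) for each of ORM1, INSL5 and CRISP3 (at 0 kb) and for protein coding genes with values among the 3 nearest on either side, by distance between start sites in GRCh37. ORM2, 6.8 kb from ORM1, is the one neighbour with a CEBPA rise of similar size (7.02), and RHAG lies below 0.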

How the data were processed

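RNA-seq was made from 6 samples of K562 cells, 2 replicates each of CTR, CEBPA and P30, with a stranded mRNA library kit. Per the paper's methods there were 2 sequencing runs, on a Genome Analyzer IIx and on a HiSeq, and depletion of ribosomal RNA is described for the first. Which replicates were in which run is not given in the sources used here, and the pooled values cannot separate the runs. The authors deposited FPKM values, 1 per gene and group with the replicates pooled, in 3 tables of 16938, 16843 and 14956 rows. Per the labels' processing notes, TopHat2 2.0 (hg19), CASAVA 1.4 and Cuffdiff were used, and the paper's methods add Cufflinks with a Gencode annotation. The rule that selected the rows and the library normalization are not given in the sources used here. The pooled FPKM hold no fragment count for a gene or a library, so no interval, test or p-value is given.

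To follow a gene through all 3 groups, rows were joined by symbol, leaving out 43 symbols that occur more than once in a table. Ranks, spreads, counts and shares over all genes of a single pair kept the rows of such repeated symbols. The genes compared in a pair are thus rows of its table. A group's value was the same in every table. Differences of log2(FPKM + 1) were taken, and genes compared had to exceed 1 FPKM in either group of the pair. Counts and medians of the lists are given over all their genes in a table, and some medians also over those above 1 FPKM. ORM1, INSL5, CRISP3 and the 13 gene lists were chosen with earlier results of these data known, and the motifs with their matches known. Genes named are those 3, members of the lists, the 5 genes nearest in pattern to each and the 3 coding genes on either side, and a few named for rank or for a P30 level of at least 50% of CEBPA were chosen after their values were seen. Genes without a row in these tables were not analysed here.

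Alternatives were a pseudocount of 0.1, centring on the median of all genes, linear FPKM for the share, ORM1 and ORM2 summed, no filter, and a filter at 5 FPKM. Sequences came from RefSeq (GRCh38.p14 promoters, all 3 genes matched) and from GRCh37 with a later Gencode annotation than the authors'. The computations were checked on simulated data. Python 3.11.15, numpy 2.4.6, pandas 2.3.3 and matplotlib 3.10.9 were used.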

Additional observations from a re-analysis of the deposited data

How the results depend on the processing

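No paired analysis was possible because each column in the tables holds 1 pooled value per group, and for the same reason no replicate could be left out. Working limits stood in for replicate error: 0.20 for a log2 value, which is the spread of P30 vs CTR over genes above 1 FPKM, 10 percentage points for a share and 1.5 times for a count. Among 85 values recomputed over 31 results, 52 were inside the limits, 32 outside and 1 changed sign. Centring and summing ORM1 with ORM2 moved none of the values of the 3 genes.

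With pseudocount 0.1 the changes in CEBPA vs CTR, P30 vs CTR and CEBPA vs P30 were 11.65, 3.66 and 7.99 for ORM1 and 11.25, 0.86 and 10.38 for INSL5, and the first pair was 5.79 and 4.82 for CRISP3. The share seen with p30 was then 31.4% for ORM1. In linear FPKM it was 0.363% for ORM1 and 50.0% for CRISP3. Over all genes, 200 were higher and 184 lower in P30 vs CTR with pseudocount 0.1, against 126 and 76. With a filter at 5 FPKM, 81 were higher there, and CEBPA exceeded CTR in 1216 and P30 in 1080.

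Medians of small lists in CEBPA vs CTR depended on the filter. With no filter, in place of the limit of 1 FPKM, they were 0.53 for acute phase proteins, 0.08 for lipocalins, -0.10 for the CAP superfamily (against 1.54), -0.16 for prohormone enzymes and 5.26 for granule cargo. At 5 FPKM they were 5.74 over 5 acute phase genes, 5.76 for granule cargo and 7.46 for granulocyte markers, while 6.38 for lipocalins and 1.99 for the CAP superfamily rest on 2 genes each and describe no list. With pseudocount 0.1 they were 4.35 for lipocalins, 3.40 for the CAP superfamily, 6.35 for granule cargo and 8.13 for granulocyte markers. In P30 vs CTR the acute phase median at 5 FPKM was 0.20, over 2 genes, and that of granule cargo 1.18 with pseudocount 0.1 and 1.17 at 5 FPKM, over 4 genes. The cause was not tested where the pseudocount moved a value. The filters change which genes are in a list.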

Other observations

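Genes of the route by which secreted proteins leave the cell were followed through a list of the translocon, signal peptidase, glycosylation and folding machinery of the endoplasmic reticulum. Of 29 genes 26 had values, all over 1 FPKM. In CEBPA vs CTR, 1 of 26 was higher, against 14.0% of all genes over 1 FPKM, and 0 lower, against 6.92%, with a median change of -0.10 against -0.01. In P30 vs CTR 0 were higher or lower, against 1.02% and 0.613% of all genes, with a median of -0.01 against 0.02. The gene that was higher was SEC61G, a subunit of the translocon, at 298 (CTR), 708 (CEBPA) and 238 (P30) FPKM. The other translocon subunits with values differed less, SEC61A1 with 81.8, 120.0 and 72.8 FPKM and SEC61B with 261, 198 and 187. The chaperone gene HSP90B1 had 282, 511 and 274 FPKM, and HSPA5, another chaperone of the endoplasmic reticulum, 117, 161 and 112. The summed level of the list was 4100 (CTR), 4560 (CEBPA) and 4000 (P30) FPKM.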
